A study of Mus musculus with 18 samples.

Results

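The comparison described here is that of heart muscle cells (cardiomyocytes) from Bag3-P209L transgenic mice (labelled Tg+) with the same cells of Bag3-WT mice, all 16 months old. It used all libraries labelled as cardiomyocyte, 12 of the 18 libraries of the series. They came from 6 mice, 3 Tg+ (codes C36 F10, C37 M10 and C52 F00, here Tg+ mice 1, 2 and 3) and 3 Bag3-WT (C36 F03, C39 M01 and C40 M00, here WT mice 1, 2 and 3). Each mouse gave 2 cardiomyocyte libraries, rep1 and rep2, whose counts were summed, so that the mouse was the replicate. Polyadenylated RNA of the isolated cells was sequenced, and the deposited table listed estimated read counts of 19094 protein-coding genes. The 6 other libraries, cardiac fibroblasts of the same mice, were used only to check the cell type and to test whether a genotype difference differed between the cell types. The strain, the promoter that drives the transgene, the cells in which it is active and its species of origin were not stated in the labels.

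BAG3 is a co-chaperone that links the chaperone HSP70 to the small heat shock proteins. In striated muscle it sits at the Z-disc, the anchor of the actin filaments, and passes damaged sarcomere proteins such as filamin C to autophagy. P209L replaces a proline in the region of BAG3 that binds small heat shock proteins, and the matching change in people causes a severe childhood myopathy, often with heart disease. The gene groups below therefore start at the sarcomere and the chaperones and go on to energy metabolism, stress responses and the other cells of the heart.

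The summed columns held 10861379 to 17171514 counts, of which 51.7% to 85.5% fell on the 13 protein genes of the mitochondrial genome and 2261639 to 7793081 on nuclear genes. Levels are given as CPM, counts scaled to a common library size with edgeR's TMM factors, which set most genes level between columns, and 3 counts stood for 0.0874 to 0.329 CPM. Values by mouse are always given in the order of mice 1, 2 and 3. The 2 repeats of a mouse had log CPM correlations of 0.943 to 0.979 (6 pairs), libraries of different mice of a genotype 0.836 to 0.954 (24 pairs) and libraries of different genotypes 0.855 to 0.960 (36 pairs). The last 2 ranges overlapped almost fully. Tg+ mouse 3 stood furthest apart, with its closest match at r = 0.854 (WT mouse 3). The letter F or M in the codes was unevenly spread, with F in Tg+ mice 1 and 3 and WT mouse 1. Cardiomyocyte counts of the Y chromosome helicase gene Ddx3y were 0, 274 and 62 in Tg+ and 0, 101 and 180 in Bag3-WT mice, against 0, 1300 and 0 and 0, 1258 and 908 in fibroblasts. The Ddx3y counts of Tg+ mouse 3 in cardiomyocytes went against its letter and its fibroblasts, so the main counts below are also given without this mouse. Other Y genes gave a mixed picture. Eif2s3y, a translation factor gene, had 24, 149 and 172 counts in Tg+ and 19, 59 and 190 in Bag3-WT cardiomyocytes, and 0 in the fibroblasts of the 3 mice with the letter F. Uty (0 counts) and Kdm5d (1 count) were at or near 0 in the cardiomyocytes of Tg+ mouse 3.

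The label was checked against Myh6 (the main myosin heavy chain of the mouse heart), Tnnt2 (cardiac troponin T), Actn2 (the Z-disc crosslinker) and Ryr2 (the calcium release channel). All 4 were higher in the cardiomyocyte than in the fibroblast column of each of the 6 mice (exact sign-flip permutation p = 0.03125 each, two-sided, the smallest possible). The mean differences were 1.42 ± 0.63 (SD), 1.37 ± 0.64, 1.91 ± 0.66 and 1.87 ± 0.68 on the log2(CPM + 0.5) scale. The columns were not pure, however. The mean level of 10 ventricular markers per kilobase of transcript was 52.3 to 147 CPM, that of 14 fibroblast markers 53.9 to 119 CPM, that of 13 endothelial markers 18.4 to 54.4 CPM and that of 18 macrophage markers 13.6 to 48.4 CPM. In such columns fewer heart muscle cells and less RNA per cell cannot be told apart.

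Marker levels of the cell types differed between mice. Between genotypes, only the ventricular and atrial sums lay apart. The ventricular marker list holds general heart muscle genes such as Myh6 and Tnnt2, so it does not tell chambers apart. Its sum was 796, 1580 and 1612 CPM in Tg+ and 1839, 2088 and 1675 CPM in Bag3-WT mice. All Tg+ mice lay lower, Tg+ mouse 1 by far, but Tg+ mouse 3 and WT mouse 3 were nearly level. The top gene was Actc1, at 119, 318 and 539 against 376, 386 and 501 CPM. Without it Tg+ mouse 2 lay above WT mouse 3, so the separation rested on this gene. The atrial markers summed to 70.4, 45.8 and 34.3 CPM in Tg+ and 76.3, 78.0 and 90.9 CPM in Bag3-WT mice. Of the 90.9 CPM of WT mouse 3, 66.3 were Dkk3, and without this gene the other 9 atrial markers overlapped, at 49.7, 26.7 and 7.19 against 58.0, 61.8 and 24.6 CPM. The atrial genes Myl4 and Sln were at 0 in Tg+ mouse 3, and 0 atrial markers were lower without overlap. Fibroblast markers (2606 to 4816 CPM in Tg+, 3275 to 6812 CPM in Bag3-WT) and endothelial markers (872 to 2831 and 856 to 1783 CPM) overlapped. All 13 endothelial markers had fitted differences above 0 (median 0.32) and all 16 tested macrophage markers below 0 (median −0.42), with no marker of either list free of overlap. Tg+ mouse 3 held the least of the macrophage (349 CPM), erythroid (19.2 CPM) and mesothelial (15.8 CPM) markers. Tg+ mouse 1 held far more lung epithelium markers, 249 CPM against 4.27 to 9.25 CPM in the other 5 mice, led by the airway secretory gene Scgb1a1 at 128 CPM. The part of these differences in the results below was not tested.

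**Figure D1:**
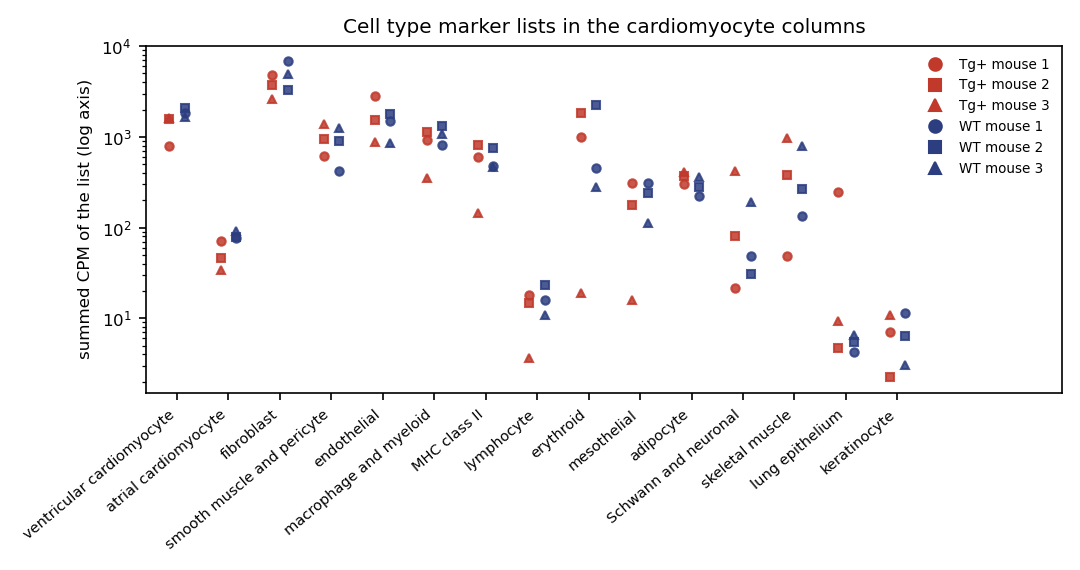
Summed CPM (log axis) of marker lists of 15 cell types in the 6 summed cardiomyocyte columns, 1 point per mouse, red for Tg+ and blue for Bag3-WT. The ventricular sums of the 3 Tg+ mice lie below those of the 3 Bag3-WT mice, narrowly so and not without Actc1. The atrial sum of WT mouse 3 is mostly Dkk3 (66.3 of 90.9 CPM), and the lung epithelium sum of Tg+ mouse 1 (249 CPM) stands apart.

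Of 12439 genes tested, 0 passed edgeR's quasi-likelihood test at adjusted p < 0.05 (0% called), and the lowest adjusted p was 1.00. At an unadjusted p under 0.05, 54 genes (0.434%) lay lower and 35 (0.281%) higher in Tg+ cardiomyocytes. The spread between mice was wide, with a biological coefficient of variation of 0.495. The p-values measure only the spread between these 3 and 3 mice. In what follows, log2FC is the fitted log2 fold change of Tg+ over Bag3-WT with its standard error (SE), with an edgeR adjusted p of 1.00 throughout, and a gene is described as lower or higher without overlap when all 3 Tg+ mice lay on 1 side of all 3 Bag3-WT mice. That held for 323 genes on the lower side (2.60%) and 282 on the higher side (2.27%). Every count without overlap below that uses all mice and this scale is to be read beside these shares. The gene lists below were chosen with earlier results of these data known, so their counts are descriptions. The median log2FC of all genes was 0.01, and 48.7% of genes lay below 0. Counting without the mitochondrial rows (nuclear-only scaling) also called 0 of 12114 genes, with 87 at an unadjusted p under 0.05 and a median of 0.01. On that scale 322 of 12071 genes (2.67%) lay lower without overlap and 262 (2.17%) higher.

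**Figure D2:**
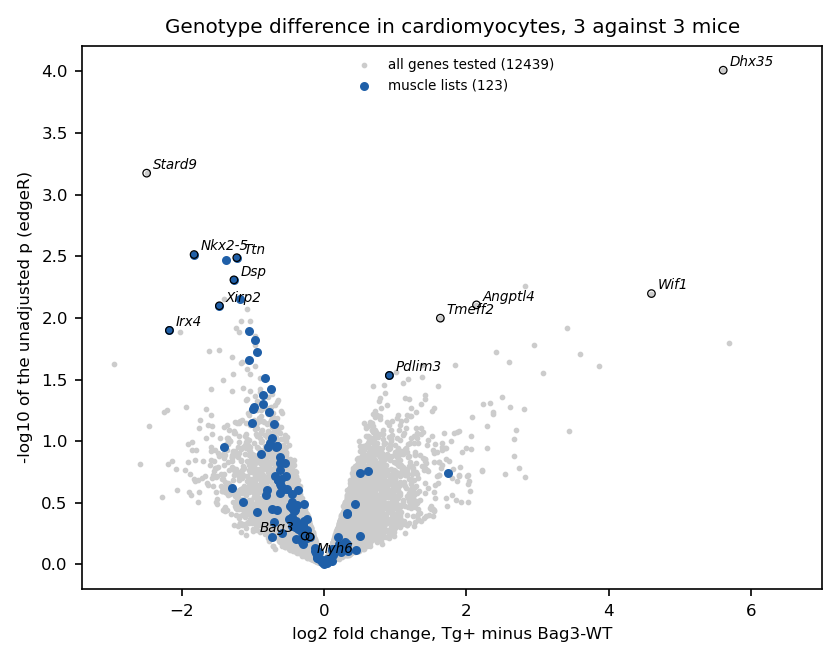
Fitted log2 fold change (Tg+ over Bag3-WT) against −log10 of edgeR's unadjusted p for 12439 genes in grey, with 123 muscle genes in blue. Most muscle genes lie to the left of 0, Dhx35 and Wif1 lie far to the right, and no gene passed after adjustment.

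Most genes of the heart muscle cell lay on the lower side in Tg+ mice, although none passed the test. Over 7 lists (thick filament, thin filament, Z-disc, calcium handling, channels, cell contacts and cardiac transcription factors), 94 of 123 tested genes had a log2FC below 0, with a median of −0.42 against 0.01 for all genes. Without overlap, 20 of the 123 (16.3%) lay lower and 1 (0.813%) higher, beside 2.60% and 2.27% of all genes. Since the lists were chosen with earlier results of these data known, these shares are no independent measure. These lists share cells with the ventricular markers, which moved the same way, and 10 of their genes are those markers. Without Tg+ mouse 1, the mouse poorest in ventricular markers, the median was −0.30, 86 genes lay below 0 and 27 (22.0%) lay lower without overlap, beside 6.88% of all genes. Without Tg+ mouse 3 these values were −0.53, 98 and 37 (30.1%), beside 6.32%. Without Tg+ mouse 2, WT mouse 1, WT mouse 2 or WT mouse 3, 35, 22, 22 and 49 of the muscle genes were lower without overlap, beside 6.08%, 6.26%, 5.25% and 7.95% of all genes.

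The genes of the thick filament, titin and the M-band, which holds the thick filaments in register, were the lowest muscle list. All 15 tested lay below 0 (median −0.66), and 4, among them Ttn, Myom1 and Mybpc3, were lower without overlap. Ttn encodes titin, the giant spring that spans the sarcomere from Z-disc to M-band (chromosome 2, 76703980 to 76982547, minus strand, GRCm38). Ttn stood at 13.8, 14.6 and 21.0 CPM in Tg+ and 38.2, 42.6 and 34.8 CPM in Bag3-WT mice. Each Tg+ mouse was well under the lowest Bag3-WT mouse, with a log2FC of −1.23 (SE 0.30). Myom1, myomesin of the M-band, was level at 47.8, 48.4 and 47.1 CPM in Bag3-WT mice and lower at 16.9, 24.7 and 31.4 CPM in Tg+ mice (log2FC −0.97, SE 0.32). Mybpc3, cardiac myosin-binding protein C, a common gene of inherited thick-walled hearts, stood at 39.2, 60.4 and 50.7 against 97.4, 112 and 79.3 CPM (log2FC −0.94, SE 0.32). The myosin heavy chains also lay below 0 but overlapped between genotypes. Myh6 stood at 196, 300 and 287 CPM in Tg+ and 289, 353 and 257 CPM in Bag3-WT mice, which overlap (log2FC −0.20, SE 0.36). Myh7, its slow isoform, was at 5.94, 10.1 and 3.74 against 4.38, 13.5 and 9.09 CPM (log2FC −0.45, SE 0.52). These 2 genes are close copies, and how reads were split between them was not stated.

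**Figure D3:**
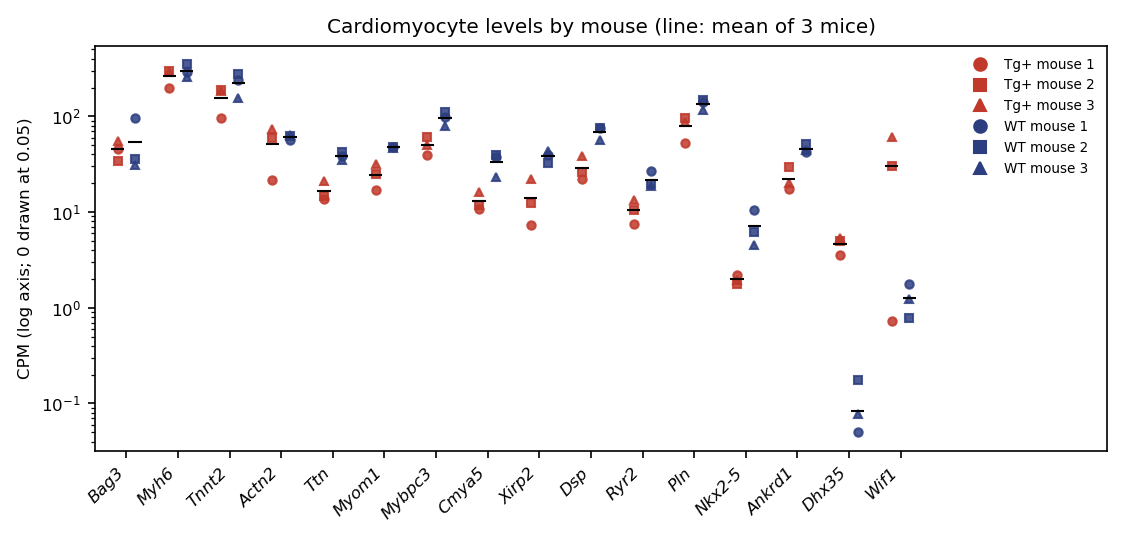
CPM (log axis) of 16 genes in the 3 Tg+ (red) and 3 Bag3-WT (blue) mice, with a line at the mean of each genotype and 0 drawn at 0.05. Ttn, Myom1, Mybpc3, Cmya5, Xirp2, Dsp, Ryr2, Pln, Nkx2-5 and Ankrd1 do not overlap between genotypes, whereas Bag3, Myh6, Tnnt2, Actn2 and Wif1 do.

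The Z-disc and its BAG3 client proteins lay lower in 18 of 22 genes (median −0.51), with 5 lower and 1 higher without overlap. Xirp2, an actin-binding repeat protein of the intercalated disc and Z-disc (chromosome 2, 67446002 to 67526614, plus strand), stood at 7.34, 12.3 and 22.0 CPM in Tg+ and 39.1, 32.9 and 43.2 CPM in Bag3-WT mice. No Tg+ mouse reached the lowest Bag3-WT mouse (log2FC −1.47, SE 0.42). Cmya5, myospryn, a large Z-disc and costamere protein, stood at 10.7, 11.7 and 16.2 against 37.7, 39.4 and 23.1 CPM (log2FC −1.38, SE 0.34). Synpo2l, an actin-binding Z-disc protein, was at 2.48, 4.03 and 3.25 against 6.90, 7.90 and 5.55 CPM (log2FC −1.06, SE 0.38). Fhl2 (log2FC −0.84, SE 0.32) and Csrp3 (−0.73, SE 0.39), LIM-domain proteins bound to titin and the Z-disc and named because they did not overlap, completed the 5. Pdlim3, the LIM protein ALP that binds alpha-actinin, went the other way, at 20.6, 14.0 and 24.9 CPM in Tg+ and 8.22, 9.64 and 13.6 CPM in Bag3-WT mice (log2FC 0.92, SE 0.35). The lowest Tg+ mouse and the highest Bag3-WT mouse were nearly level. Flnc, filamin C, a client of BAG3, had no common direction, at 126, 93.6 and 335 against 294, 68.9 and 101 CPM (log2FC 0.26, SE 0.67), and its sign turned without Tg+ mouse 3 (−0.49) or WT mouse 2 (−0.09). Actn2 was at 21.5, 58.6 and 74.4 against 57.1, 63.0 and 63.5 CPM (log2FC −0.25, SE 0.45), with only Tg+ mouse 1 far below the others and a value of 0.14 without it.

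The thin filament list had 9 of 11 genes below 0 (median −0.52) but 0 without overlap. Tnnt2 stood at 95.9, 187 and 186 against 241, 274 and 156 CPM (log2FC −0.52, SE 0.41). Tnnc1, the calcium-binding troponin C, had a log2FC of −0.66 (SE 0.37), and Tnni3, the inhibitory troponin I, one of −0.63 (SE 0.38). WT mouse 3 lay within the Tg+ range for Tnnt2, Tnnc1 and Tnni3.

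The contacts that anchor one cardiomyocyte to the next and to the matrix lay lower in 13 of 20 genes (median −0.21), with 3 lower without overlap. Dsp, desmoplakin, the plaque protein that ties desmin filaments to the desmosome (chromosome 13, 38151294 to 38198577, plus strand), led them. Dsp stood at 22.1, 26.0 and 38.3 CPM in Tg+ and 76.0, 74.9 and 56.9 CPM in Bag3-WT mice. The groups were separated by a wide gap (log2FC −1.27, SE 0.33). Nexn, the actin-binding protein nexilin, stood at 7.60, 14.5 and 15.3 against 21.4, 21.3 and 18.3 CPM (log2FC −0.71, SE 0.34). Pkp2, plakophilin 2 of the desmosome, named for its lack of overlap, differed little (log2FC −0.38, SE 0.37). The median of this list was −0.48 without Tg+ mouse 3 and 0.01 without WT mouse 1.

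Calcium handling genes, which couple the action potential to contraction, lay lower in 16 of 19 (median −0.45), and 4 were lower without overlap. Ryr2 stood at 7.54, 10.6 and 13.4 CPM in Tg+ and 27.1, 19.5 and 18.8 CPM in Bag3-WT mice. All Tg+ mice were lower (log2FC −1.06, SE 0.33). Pln, phospholamban, the brake of the calcium pump of the sarcoplasmic reticulum, stood at 52.9, 96.7 and 87.4 against 141, 147 and 117 CPM (log2FC −0.77, SE 0.35). Jph2, junctophilin 2, which holds that store against the cell membrane, was at 23.9, 34.5 and 30.5 against 43.4, 58.7 and 46.6 CPM (log2FC −0.74, SE 0.30). Cacnb2, a subunit of the calcium channel and named for its lack of overlap, was low throughout at 0.39 to 1.64 CPM. Channel and connexin genes lay on both sides, 11 of 20 below 0 (median −0.11) with 1, Scn4b, lower without overlap. Among them Kcnip2, a potassium channel partner, stood at 2.65, 4.71 and 2.95 against 8.87, 7.56 and 4.16 CPM (log2FC −0.99, SE 0.44), overlapping through WT mouse 3.

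Cardiac transcription factor genes lay below 0 in 12 of 16 (median −0.17), with 3 lower without overlap. Nkx2-5, the homeobox factor that marks and maintains the cardiac lineage (chromosome 17, 26838664 to 26845009, minus strand), stood at 2.18, 1.78 and 1.97 CPM in Tg+ and 10.5, 6.17 and 4.55 CPM in Bag3-WT mice. The Tg+ mice were close to each other and each under the lowest Bag3-WT mouse (log2FC −1.83, SE 0.44). Irx4, the ventricle-specific homeobox factor, was at 0.50, 0.37 and 0.79 against 2.19, 3.65 and 1.54 CPM (log2FC −2.18, SE 0.69). Mef2d, named for its lack of overlap, was nearly level within each genotype, at 35.1, 33.6 and 33.4 against 41.6, 40.5 and 41.7 CPM, and its difference was small (log2FC −0.28, SE 0.26).

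MEF2 factors switch on muscle genes through an A/T-rich motif, and this motif was looked for, as a description, in the 250 bases before the RefSeq start of the muscle genes (table of build GRCm38.p6). The canonical MEF2 motif, which reads the same on both strands, was found in 959 of 32851 promoters of the table (2.92%) and in 190 of 9397 tested genes with a promoter there (2.02%). Of the 20 muscle genes lower without overlap, 17 had a promoter in the table and 5 (29.4%) held the motif. It was also held by 5 of the 74 other muscle genes with a promoter (6.76%), and so by 10 of 91 muscle genes in all (11.0%). The table held a promoter for 75.5% of all genes tested and 74.0% of the muscle genes. A gene with several promoters counted if any of them held the motif. With that and only 5 of 17 genes, these shares were not compared. The windows of 4 of the 5 genes follow, 5′ to 3′ on the strand of the gene, to show where the motif (in capitals) lies before genes that were lower. They are chr2:76982548-76982797 (minus strand) for Ttn, chr2:67445752-67446001 (plus) for Xirp2, chr2:91117894-91118143 (plus) for Mybpc3 and chr14:20668355-20668604 (minus) for Synpo2l. The motif starts 166, 74, 90 and 109 bases before the start of the gene. Another Synpo2l promoter with the motif (chr14:20664575-20664824) is not shown.
Ttn: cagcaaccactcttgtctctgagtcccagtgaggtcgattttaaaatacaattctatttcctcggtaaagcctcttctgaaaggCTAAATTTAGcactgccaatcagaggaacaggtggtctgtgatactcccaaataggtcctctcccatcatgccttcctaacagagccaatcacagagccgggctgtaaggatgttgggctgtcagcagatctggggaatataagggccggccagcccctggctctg
Xirp2: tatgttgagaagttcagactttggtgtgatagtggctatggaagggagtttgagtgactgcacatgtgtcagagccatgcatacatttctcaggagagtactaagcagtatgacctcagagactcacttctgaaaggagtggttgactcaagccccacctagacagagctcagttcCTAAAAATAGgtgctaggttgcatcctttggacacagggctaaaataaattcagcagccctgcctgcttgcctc
Mybpc3: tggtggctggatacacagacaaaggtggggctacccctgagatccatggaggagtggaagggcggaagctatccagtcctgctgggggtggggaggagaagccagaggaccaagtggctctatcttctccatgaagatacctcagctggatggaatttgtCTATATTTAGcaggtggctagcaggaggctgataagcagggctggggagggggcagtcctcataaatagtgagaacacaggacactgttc
Synpo2l: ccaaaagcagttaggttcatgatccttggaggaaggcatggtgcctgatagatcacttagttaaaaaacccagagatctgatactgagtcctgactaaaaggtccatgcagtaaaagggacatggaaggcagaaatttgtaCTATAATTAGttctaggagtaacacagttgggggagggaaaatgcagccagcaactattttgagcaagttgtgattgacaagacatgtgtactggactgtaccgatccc
Whether a MEF2 factor binds these sites in the mice was not measured.

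The sum of the ventricular markers lay lower in all Tg+ mice, though not without Actc1. Each muscle gene was therefore also set against this sum in the same mouse, itself left out where it is a marker. This description was chosen after the values were seen. Of the 20 genes lower without overlap, 9 were still lower without overlap per 1000 CPM of ventricular markers (Synpo2l, Cmya5, Xirp2, Ttn, Myom1, Pln, Dsp, Nexn and Irx4), 7.32% of the 123, beside 23 of all 12439 genes (0.185%). The marker sum was lower in every Tg+ mouse, so dividing by it raises genes in Tg+ relative to Bag3-WT mice. The shares of all genes on this scale, in either direction, are thus set in part by the scaling and give no measure for the muscle genes. The 9 genes also came from 20 picked on the same values. Ttn then stood at 17.3, 9.24 and 13.0 in Tg+ and 20.8, 20.4 and 20.7 in Bag3-WT mice. Dsp stood at 27.7, 16.4 and 23.7 against 41.3, 35.9 and 34.0. Nkx2-5, Ryr2 and Mybpc3 overlapped on this scale. On the same scale 6 genes were higher without overlap (Pdlim3, Myh6, Phkg1, Gja1, Gjc1 and Dmd), 4.88% of the 123, beside 1426 of all genes (11.5%). Among them Myh6 stood at 327, 234 and 217 against 186, 203 and 182, and the dystrophin gene Dmd at 8.52, 6.52 and 6.90 against 2.03, 3.99 and 5.15.

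Several of the lower muscle genes have very long transcripts. Among the 19 muscle genes with a longest protein-coding transcript over 8 kilobases, 6 (31.6%) were lower without overlap and the median log2FC was −0.45. For the 704 tested genes of that length the share was 2.56% and the median 0.06. The medians of the 27 muscle genes under 2 kilobases, the 38 of 2 to 4 kilobases and the 38 of 4 to 8 kilobases were −0.61, −0.35 and −0.40, with 3, 5 and 6 lower without overlap. Over all genes the median ran from −0.06 under 2 kilobases to 0.06 over 8 kilobases. The part of transcript length in these differences was not tested.

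**Figure D4:**
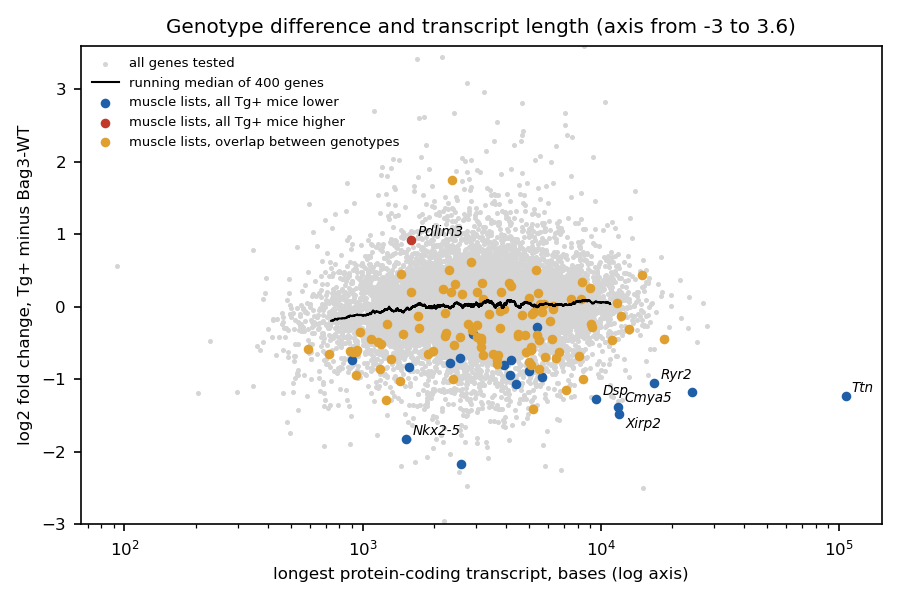
Log2 fold change (Tg+ over Bag3-WT) against the longest protein-coding transcript in bases (log axis) for all genes tested in grey with their running median over 400 genes as a line, and for muscle genes in colour. The long muscle genes Dsp, Cmya5, Xirp2, Ryr2 and Ttn lie well below the line, and 4 genes fall outside the drawn range.

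Bag3 itself, the gene named in the genotype label (mouse gene on chromosome 7, 128523616 to 128546981, plus strand), stood at 45.7, 34.4 and 55.2 CPM in Tg+ and 96.4, 35.6 and 31.1 CPM in Bag3-WT mice. WT mouse 1 was above and the other WT mice within or just under the Tg+ range (log2FC −0.27, SE 0.48, 95% interval −1.21 to 0.67). Without WT mouse 1 the value was 0.45. Whether reads of the transgene fall on this gene's row was not stated, so these levels check neither the label nor the transgene. The other BAG genes, co-chaperones that release substrates from HSP70, had log2FC of −0.24 (Bag1), 0.77 (Bag2), −0.36 (Bag4), 0.27 (Bag5) and 0.18 (Bag6), with SE of 0.30 to 0.66. Bag2 stood at 1.75, 4.29 and 10.8 against 2.30, 2.78 and 4.62 CPM, and rested on Tg+ mouse 3, without which it was −0.12. Over the 6 genes the median was −0.03, with 3 on each side and 0 without overlap.

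The partners of BAG3 among the chaperones showed no gene without overlap. Small heat shock protein genes, whose products hold unfolded client proteins, lay below 0 in 5 of 6 (median −0.30). Hspb7, the cardiovascular small heat shock protein that binds filamin C, stood furthest from 0 among them, at 28.6, 69.2 and 38.1 CPM in Tg+ and 93.0, 101 and 67.1 CPM in Bag3-WT mice. Tg+ mouse 2 lay just above WT mouse 3 (log2FC −0.95, SE 0.41). Hspb8, the partner that BAG3 binds directly, stood at 21.8, 21.2 and 20.7 against 27.2, 28.7 and 17.0 CPM (log2FC −0.19, SE 0.31). Cryab, alpha-B-crystallin, a chaperone of desmin and titin, stood at 48.2, 63.9 and 46.1 against 85.3, 75.1 and 47.9 CPM (log2FC −0.40, SE 0.34). Hspb6 was at −0.63 (SE 0.38), Hspb2 at −0.10 (SE 0.58) and Hspb1 at 0.16 (SE 0.41), and the last 2 changed sign without Tg+ mouse 1 or WT mouse 3. Genes of the HSP70, HSP90 and DNAJ chaperones lay above 0 in 16 of 24 (median 0.08). Hspa8, the constitutive HSP70, was at 451, 224 and 201 against 292, 281 and 227 CPM (log2FC 0.13, SE 0.42), high only in Tg+ mouse 1. Stub1, the ubiquitin ligase CHIP that works with BAG3, was at 34.5, 40.2 and 59.1 against 95.2, 27.8 and 49.5 CPM (log2FC −0.37, SE 0.47), and changed sign without WT mouse 1. Autophagy and lysosome genes were split, 17 of 30 below 0 (median −0.01), with 1 lower and 1 higher without overlap (Wipi1 and Gabarapl2). Sqstm1, the autophagy receptor p62, stood at 94.1, 145 and 94.0 against 106, 113 and 99.5 CPM (log2FC 0.06, SE 0.33). Wipi1, which helps to form autophagosomes, was the lower one at 9.78, 10.5 and 7.09 against 15.9, 15.2 and 13.1 CPM (log2FC −0.69, SE 0.30). Proteasome and ubiquitin ligase genes lay above 0 in 21 of 34 (median 0.17), with 0 without overlap.

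**Figure D5:**
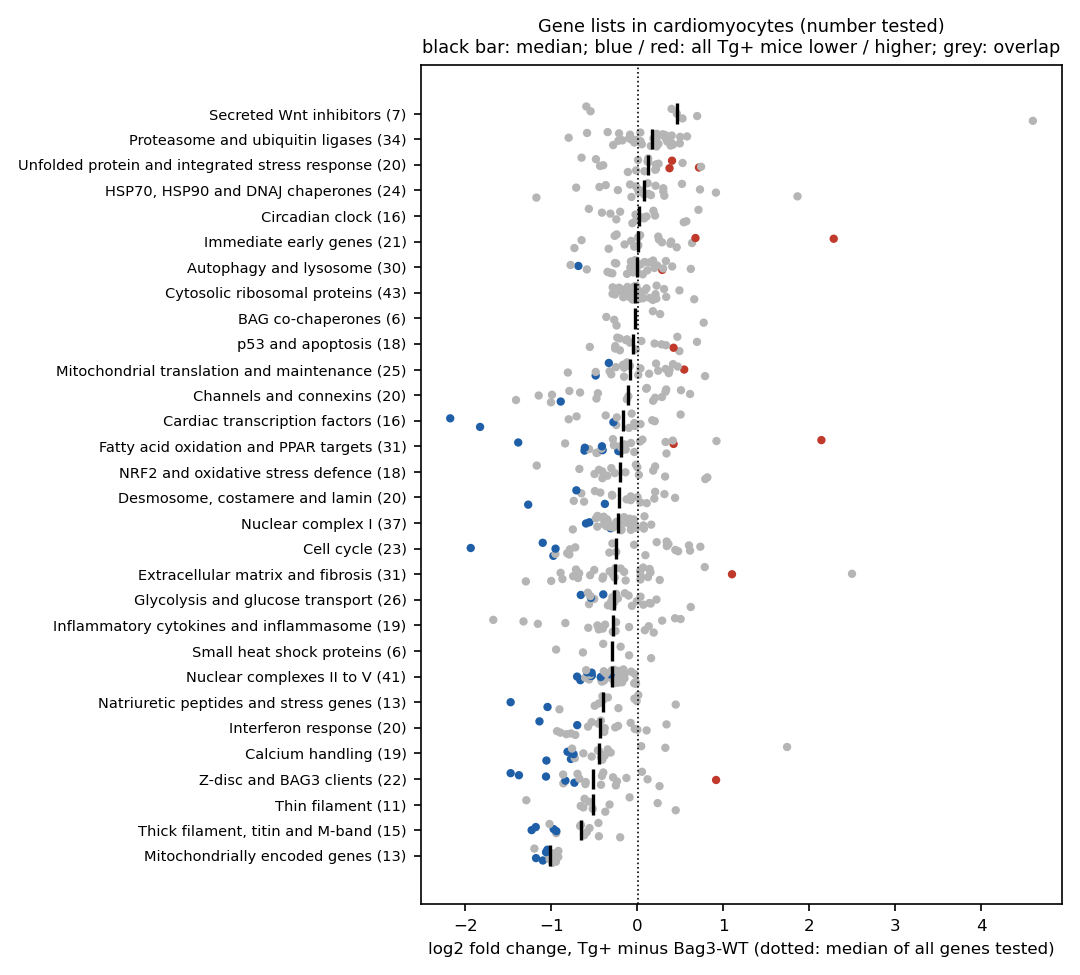
Log2 fold changes (Tg+ over Bag3-WT) of the tested genes of 30 lists, 1 point per gene, with a black bar at the median of each list and a dotted line at the median of all genes (0.01). Mitochondrially encoded, thick filament and thin filament genes lie furthest left, with medians of −1.02, −0.66 and −0.52, and the autophagy list lies around 0 (−0.01).

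Energy genes lay lower beside the muscle genes, in 143 of 173 (median −0.26). Without overlap, 26 (15.0%) were lower and 3 (1.73%) higher, beside 2.60% and 2.27% of all genes. These lists too were chosen with earlier results of these data known. Without Tg+ mouse 1, 114 lay below 0 and 30 (17.3%) were lower without overlap, beside 6.88% of all genes, and without Tg+ mouse 3 these were 144 and 37 (21.4%), beside 6.32%. Without Tg+ mouse 2, WT mouse 1, WT mouse 2 or WT mouse 3, 66 (38.2%), 39 (22.5%), 28 (16.2%) and 61 (35.3%) were lower without overlap, beside 6.08%, 6.26%, 5.25% and 7.95% of all genes. The 13 genes of the mitochondrial genome all lay below 0 (median −1.02), and 4 were lower without overlap (mt-Nd3, mt-Nd4l, mt-Co2 and mt-Atp6). mt-Nd4l, a subunit of complex I, stood at 2927, 7080 and 8615 CPM in Tg+ and 17384, 15444 and 9320 CPM in Bag3-WT mice (log2FC −1.18, SE 0.56). mt-Co2, a core subunit of cytochrome c oxidase, was at 21717, 49059 and 59392 against 113234, 86664 and 71905 CPM (log2FC −1.06, SE 0.57). The share of counts on all 13 genes overlapped between genotypes, and its difference of −14.1 percentage points did not pass (exact permutation p = 0.3, two-sided, smallest possible 0.1). The mitochondrial share by genotype differed by −6.42 points without Tg+ mouse 1.

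Nuclear subunits of the respiratory chain lay lower by less. All 41 genes of complexes II to V were below 0 (median −0.30), 8 of them without overlap, and so were 33 of 37 complex I genes (median −0.23), 3 of them without overlap (Ndufa6, Ndufb5 and Ndufb8). Uqcr10, a small subunit of complex III, stood at 16.9, 17.7 and 15.6 CPM in Tg+ and 21.9, 32.1 and 25.4 CPM in Bag3-WT mice (log2FC −0.66, SE 0.29). Cox7a1, the heart and muscle isoform of a cytochrome c oxidase subunit, was at 14.8, 29.4 and 22.4 against 30.1, 41.8 and 36.3 CPM (log2FC −0.70, SE 0.34). Ndufb5, an accessory subunit of complex I, was at 16.0, 17.6 and 14.8 against 22.0, 27.4 and 23.7 CPM (log2FC −0.60, SE 0.27). Of all genes tested, 48.7% lay below 0 and 2.60% were lower without overlap, beside 19.5% of the genes of complexes II to V and 8.11% of the complex I genes.

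Fatty acid oxidation genes, the main fuel pathway of the heart, lay below 0 in 23 of 31 (median −0.19). Without overlap, 6 (19.4%) were lower and 2 (6.45%) higher, beside 2.60% and 2.27% of all genes. Acsl1, which activates long-chain fatty acids, stood at 13.1, 10.7 and 12.1 CPM in Tg+ and 19.8, 18.7 and 16.3 CPM in Bag3-WT mice (log2FC −0.61, SE 0.28). Fabp3, the heart fatty acid carrier, was at 42.1, 97.9 and 72.1 against 128, 155 and 96.4 CPM, with Tg+ mouse 2 just above WT mouse 3 (log2FC −0.84, SE 0.40). Angptl4, a secreted inhibitor of lipoprotein lipase and target of PPAR factors, was higher at 2.91, 2.51 and 2.66 against 0.33, 0.69 and 0.77 CPM (log2FC 2.14, SE 0.62). It rested on 100, 48 and 27 counts in Tg+ and only 3, 8 and 10 in Bag3-WT mice. The fibroblast columns, scaled among themselves, held 9.31 to 58.2 CPM of Angptl4. Cd36, the fatty acid transporter, which endothelial cells also express, was the other higher one (log2FC 0.42, SE 0.35). Glycolysis genes lay below 0 in 20 of 26 (median −0.27, 3 lower without overlap), namely Pdha1, Mpc2, a subunit of the mitochondrial pyruvate carrier (log2FC −0.66, SE 0.31), and Eno3, the muscle enolase (−0.54, SE 0.34). Genes of mitochondrial translation and maintenance were split, 13 of 25 below 0 (median −0.09), with Tfb2m and Fundc1 lower and Nrf1, a regulator of respiratory genes, higher without overlap (0.55, SE 0.33).

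Heart stress genes did not lie higher. Of 13 natriuretic peptide and stress genes 11 lay below 0 (median −0.40), with 2 lower without overlap (Xirp2, named above, and Ankrd1). Ankrd1, a titin-bound ankyrin repeat protein that responds to load, stood at 17.2, 29.8 and 20.0 CPM in Tg+ and 42.1, 51.2 and 44.9 CPM in Bag3-WT mice (log2FC −1.04, SE 0.32). Nppa, the atrial natriuretic peptide, was at 16.0, 7.27 and 1.48 against 20.6, 21.5 and 4.93 CPM (log2FC −0.91, SE 0.80), and Nppb, the brain natriuretic peptide, at 2.45, 6.70 and 7.38 against 6.35, 8.69 and 4.08 CPM (log2FC −0.22, SE 0.51). Both overlapped. Nppa is also an atrial marker.

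The list of the unfolded protein response and the integrated stress response leaned slightly the other way, with 14 of 20 above 0 (median 0.13). Of these genes 3 (15%) were higher without overlap, beside 2.27% of all genes, and 0 had an unadjusted p under 0.05 with edgeR. Trib3, a pseudokinase induced by ATF4, stood at 6.38, 5.34 and 5.61 CPM in Tg+ and 2.96, 4.26 and 3.31 CPM in Bag3-WT mice (log2FC 0.72, SE 0.36). Dnajb9 (0.40, SE 0.28), a co-chaperone of the endoplasmic reticulum, and Xbp1 (0.37, SE 0.29), a transcription factor of its stress response, were the others. Immediate early genes lay above 0 in 13 of 21 (median 0.01), 2 of them, Nr4a2 and Nr4a3, without overlap. Nr4a2, an orphan nuclear receptor, stood at 1.63, 1.94 and 6.59 against 0.55, 0 and 1.46 CPM (log2FC 2.28, SE 1.12), which moved to 1.38 without Tg+ mouse 3. Oxidative defence genes (12 of 18 below 0, median −0.20) and p53 and apoptosis genes (10 of 18, median −0.05) had 0 and 1 (Bbc3) without overlap. Circadian clock genes were even (8 of 16 below 0, median 0.02), and cytosolic ribosomal protein genes lay below 0 in 28 of 43 (median −0.03), both with 0 without overlap.

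Immune, matrix and cell cycle lists were uneven. Interferon response genes lay below 0 in 17 of 20 (median −0.44), with 2 lower without overlap (Usp18 and Zbp1), beside the macrophage markers, of which 16 of 16 also lay below 0. Usp18, which removes the interferon-induced modifier ISG15, stood at 4.34, 2.56 and 2.36 CPM in Tg+ and 5.37, 4.95 and 4.85 CPM in Bag3-WT mice (log2FC −0.70, SE 0.41). Irf7, a regulator of interferon genes, was at 10.7, 10.5 and 9.25 against 9.86, 28.3 and 20.0 CPM, so that WT mouse 1 matched the Tg+ mice (log2FC −0.93, SE 0.40). Inflammatory cytokine genes lay below 0 in 13 of 19 (median −0.29), with 0 without overlap. Matrix and fibrosis genes lay below 0 in 20 of 31 (median −0.26), with 1, Thbs4, higher without overlap. Col1a1, the main chain of collagen I, ranged from 500 to 1133 CPM in Tg+ and from 342 to 3253 CPM in Bag3-WT mice (log2FC −1.30, SE 0.77). Tnc, tenascin C, a matrix protein of injured tissue, stood at 16.0, 41.6 and 211 against 33.6, 3.91 and 10.2 CPM (log2FC 2.50, SE 1.05). Its height rested on Tg+ mouse 3, and it was 0.86 without that mouse. Cell cycle genes lay on both sides, 13 of 23 below 0 and 10 above (median −0.25). Of them 4 (17.4%) were lower without overlap (Mki67, Tpx2, Birc5 and Aurkb), beside 2.60% of all genes. Birc5 rested on only 1 to 24 counts a mouse and Aurkb on 9 to 29. Mki67, the proliferation marker, was at 2.68, 4.66 and 2.46 against 5.37, 6.25 and 7.71 CPM (log2FC −0.98, SE 0.41), and Tpx2, a spindle assembly factor, at 3.76, 2.51 and 2.36 against 9.86, 4.69 and 4.16 CPM (log2FC −1.10, SE 0.47).

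Outside the lists, genes with the lowest unadjusted p and no overlap were named up to a fixed number in each direction. On the lower side, Chfr, a mitotic checkpoint ubiquitin ligase, stood at 3.20, 2.30 and 2.76 CPM in Tg+ and 8.33, 8.69 and 4.93 CPM in Bag3-WT mice (log2FC −1.40, SE 0.39). Retreg1, a receptor for autophagy of the endoplasmic reticulum, stood at 4.05, 4.66 and 4.33 against 8.22, 9.29 and 10.1 CPM (log2FC −1.08, SE 0.32). Within each genotype the Retreg1 values were close together. On the higher side, Tmeff2, a transmembrane protein with follistatin-like domains, stood at 3.06, 8.63 and 7.58 against 1.75, 2.17 and 2.23 CPM (log2FC 1.63, SE 0.49). Smad6, an inhibitor of BMP signalling that endothelial cells express strongly, was at 45.2, 49.5 and 81.4 against 34.4, 28.4 and 35.3 CPM (log2FC 0.84, SE 0.34). Slc44a2, a choline transporter, was at 37.9, 43.5 and 35.6 against 25.6, 22.1 and 25.4 CPM (log2FC 0.68, SE 0.27). Tbk1, a kinase of innate immunity that also activates autophagy receptors, was at 9.23, 7.53 and 4.63 against 4.49, 1.91 and 3.08 CPM (log2FC 1.18, SE 0.46), with its lowest Tg+ and highest Bag3-WT mouse nearly level. The remaining higher genes of this kind were Ptpn2, Pcmtd2, Thrsp, Meis2 and Col23a1, with log2FC of 1.01, 0.85, 1.42, 0.78 and 0.77. Thrsp, a lipogenic gene of fat cells, was at 0.44 without Tg+ mouse 3.

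A set of 3 genes stood out from the rest, called by 1 or 2 of the other tests. Dhx35, a DEAH-box RNA helicase gene (chromosome 2, 158794807 to 158858214, plus strand), had the lowest p of all genes. Its counts were 123, 96 and 55 in Tg+ and 0, 2 and 1 in Bag3-WT cardiomyocytes, or 3.58, 5.02 and 5.41 against 0, 0.17 and 0.08 CPM. Both repeats of each Tg+ mouse held counts (6 to 112), and each repeat of the Bag3-WT mice held 0 or 1. The ratio of the summed counts per scaled library was 48.3, with a 95% interval of 16.3 to 235 that covers counting error only (log2FC 5.61, SE 0.81). In fibroblasts of the same mice Dhx35 was present in both genotypes, at 138, 145 and 31 counts in Tg+ and 148, 64 and 106 in Bag3-WT (log2FC −0.04, SE 0.52). Wif1, a secreted Wnt inhibitor (chromosome 10, 121033960 to 121100650, plus strand), stood at 0.73, 30.6 and 60.2 CPM in Tg+ and 1.75, 0.78 and 1.23 CPM in Bag3-WT mice. It was high in Tg+ mice 2 and 3 and at the Bag3-WT level in Tg+ mouse 1 (log2FC 4.60, SE 1.27). The other 6 tested genes for secreted Wnt inhibitors had log2FC of −0.59 to 0.70. Stard9, a mitotic kinesin with a lipid-binding domain, stood at 1.16, 2.15 and 0.98 against 6.35, 11.2 and 6.94 CPM (log2FC −2.50, SE 0.47). In fibroblasts, scaled among themselves, Stard9 varied from 0.04 to 25.3 CPM in Tg+ and from 0 to 10.1 CPM in Bag3-WT mice. DESeq2's Wald test called these 3 genes, with adjusted p = 5.9e-04 for Dhx35, 0.0210 for Wif1 and 0.0282 for Stard9. edgeR scaled by library size alone called Wif1 (adjusted p = 5.5e-06) and Dhx35 (5.8e-04).

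Whether the genotype difference in cardiomyocytes differed from that in fibroblasts was tested as an interaction with the mouse as a block. Of 13891 genes, 0 passed at adjusted p < 0.05 with edgeR (0% called), and 124 (0.893%) had an unadjusted p under 0.05. limma voom with the mouse as a random effect also called 0, with 199 at an unadjusted p under 0.05. The lowest unadjusted p belonged to Dhx35 (difference of log2FC 5.80, SE 1.13), Zbed6 (−1.71, SE 0.45), Angptl4 (2.01, SE 0.54), Cul7 (−2.00, SE 0.54) and Tbk1 (1.48, SE 0.40). Zbed6, a transcription factor gene, lies inside another gene, so reads of the pair may be mixed. Among the muscle genes, the differences were led, by unadjusted p, by Dsp (−1.37, SE 0.42), Cmya5 (−1.49, SE 0.47) and Xirp2 (−1.76, SE 0.57). Their fibroblast log2FC were 0.05, 0.05 and 0.24. The fibroblast columns, scaled among themselves, also hold these muscle RNAs, Ttn at 4.37 to 17.3 CPM and Dsp at 9.95 to 23.0 CPM. These values cannot be set beside the cardiomyocyte CPM above. Scaled jointly, Dsp was at 7.23 to 17.4 CPM in fibroblast and 29.9 to 103 CPM in cardiomyocyte columns. The fibroblast log2FC of Ttn was −0.04 (SE 0.54) against −1.23 in cardiomyocytes (difference −1.27, SE 0.57). After adjustment none of these differences between cell types passed.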

How the data were processed

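Polyadenylated RNA of isolated cells was sequenced, per the labels' protocols. The deposited table held estimated counts per gene (expected counts, 44.7% not whole); kallisto 0.44.0, GRCm38.p6, R 3.4.4 and DESeq2 1.18.1 appear, without role or order, in the submitters' processing notes. The heart muscle samples were sequenced in 1 more round, per the labels. Counts of rep1 and rep2 were summed per mouse and rounded. The repeat number pairs no mice: deviations of same-numbered libraries between genotypes correlated at a mean r of 0.0146 (18 pairs, −0.267 to 0.256).

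Genotype was tested with edgeR 4.0.16 in R 4.3.3 (filterByExpr, TMM, robust glmQLFit, glmQLFTest, two-sided, Benjamini-Hochberg over all genes tested), and tried with limma 3.58.1 and DESeq2 1.42.0. The scripts were tested on simulated data. Named were Bag3, the 4 markers, 10 defining genes, the 10 genes a direction with the lowest p among those with no overlap and a mean of at least 5 CPM, up to 4 tested genes a list, the 5 lowest p of the interaction and genes called by an alternative; Fhl2, Csrp3, Cacnb2, Pkp2, Mef2d, Scn4b, Bag6, Hspb1, Hspb2, Gja1, Gjc1, Dmd, Phkg1, Cd36, mt-Atp6, Ndufa6, Pdha1, Tfb2m, Fundc1, Zbp1 and Thbs4 were named after their values were seen. Members and lists were chosen with earlier results of these data known. Counting intervals cover counting error only. Some results of the lists are not reported here.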

Additional observations from a re-analysis of the deposited data

How the results depend on the processing

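Over 21 other settings, the number of genes called stayed at 0 except for 2 with scaling by library size alone and 3 with DESeq2's Wald test. Scaling by library size alone shifted the median of all genes to 0.84, and its values are read relative to that. The fit with a replicate block (repeat number as block, mouse as random effect, limma voom on 12 libraries) called 0, as did the same fit without it, with 426 and 489 genes at an unadjusted p under 0.05. Leaving out each mouse called 0 each time, with 109 to 214 genes at an unadjusted p under 0.05, and the interaction called 0 in 9 other settings. The mitochondrial share by genotype differed, without 1 mouse, by −18.3 to −6.42 percentage points.

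The sign of Flnc (−0.106) and Hspa8 (−0.0108) turned with the code letter as a covariate, that of Sqstm1 (−0.0266) with rep1 libraries only, that of Bag2 (−0.000539 and −0.0214) with and without the replicate block, that of Bag6 (−0.00302) with library size alone, and that of Hspb2 (0.118) with a transcript length offset, added after seeing the data. Leaving out 1 mouse turned the sign of Actn2 (−0.614 to 0.144), Bag1 (−0.441 to 0.037), Bag2 (−0.117 to 1.22), Bag3 (−0.551 to 0.447), Bag6 (−0.142 to 0.390), Flnc (−0.494 to 1.12), Hspa8 (−0.297 to 0.337), Hspb1 (−0.087 to 0.488), Hspb2 (−0.652 to 0.432), Myh6 (−0.308 to 0.000515), Nppb (−0.490 to 0.182), Sqstm1 (−0.173 to 0.197) and Stub1 (−0.695 to 0.204). The marker check gave 0.518 for Myh6 and 1.01 for Ryr2 with library size alone (exact sign-flip p = 0.0625). Without 1 mouse it gave 1.23 to 1.56 (Myh6), 1.20 to 1.52 (Tnnt2), 1.78 to 2.13 (Actn2) and 1.66 to 2.03 (Ryr2), where 5 mice cannot go below an exact p of 0.0625. Of the list medians, 12 moved past the spread between mice under other settings and 14 when 1 mouse was left out. With 2261639 nuclear counts in the shallowest column, 3 counts are 0.329 CPM, and genes near that level could not be compared. The causes of these changes were not tested.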
